A study of Mus musculus with 6 samples.

Results

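The regions described here are those of a ChIP-seq list from mouse testis that are centred on a simple repeat with a unit of 1, 2, 5 or 6 letters or on low-complexity DNA, on chromosomes 1 to 19 and X. A simple repeat is a short DNA word copied head to tail, and low-complexity DNA is a stretch dominated by 1 or 2 bases without a clean unit. The choice used the repeat name that the authors' annotation gives for the centre of each region, and no score. It found 268 regions among 23030 on these chromosomes (1.16%, Wilson 95% interval 1.03 to 1.31%) and among 39096 in the whole list. Simple repeats with units of 3 or 4 letters, 989 regions, are not part of the set and serve as a comparison.

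The study targeted PHF13, called SPOC1 in the library names, a chromatin protein whose PHD finger recognises histone H3 tails that carry methylation. Its libraries came from testis of C57Bl/6 mice aged 5 weeks: 3 SPOC1 ChIP libraries, of which 2 are labelled Phf13-/- and 1 wild type, and 3 input libraries, of which 1 is labelled Phf13-/- and 2 wild type. The ChIP and input libraries whose titles share a code and the replicate number 2 carry different genotypes, Phf13-/- for the ChIP and wild type for the input; the labels do not say whether they came from 1 animal. A single list was analysed, with no value per library and none for input, so no replicate error exists, genotypes could not be compared, and the regions are not called PHF13 binding sites. All intervals below cover counting error only, and because regions are not replicates no test between sets of regions was made.

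Simple repeats lengthen and shorten by slippage of the polymerase and differ widely in composition. Tracts with purines on one strand and pyrimidines on the other can leave the usual double helix, and the hexamer TTAGGG caps mammalian chromosomes as the telomere repeat. Reads from tandem copies can fit many places, so where such reads were placed depends on the alignment. The repeat units that the results turn on are printed here as the list spells them, 5′ to 3′. Capitals mark letters of the rarer kind in the unit (a pyrimidine among purines, or a purine among pyrimidines), so a unit with no capitals is purely of one kind.
hexamer with the most regions: ttctcc
its other strand: ggagaa
pentamer with the most regions: Cagag
its other strand: ctctG
hexamer with 1 odd letter: tctctG
pentamer of purines: ggaaa
telomere hexamer: TTaggg
These are single units; the sequence of the regions themselves was not analysed here.

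Going by the name of the repeat, most of the 268 regions sat on DNA with purines on one strand and pyrimidines on the other. By unit length, 93 regions had a unit of 5 letters (34.7%, 29.3 to 40.6%), 58 a unit of 6 (21.6%), 54 a unit of 2 (20.1%) and 1 a unit of 1, while 62 were at low-complexity DNA (23.1%, 18.5 to 28.5%). No unit had 7 or more letters. With the rotations and both strands of a unit taken as 1, there were 36 names, of which 27 were units and 9 low-complexity names. The 9 names with at least 10 regions held 189 of the 268 (70.5%), and 10 names had a single region.

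The dinucleotide (GA)n or (TC)n was the most frequent, with 35 regions on 17 chromosomes. Next were the hexamer (TTCTCC)n or (GGAGAA)n with 33, the pentamer (CAGAG)n or (CTCTG)n with 31 and the pentamer (GGAAA)n or (TTTCC)n with 19. CT-rich DNA had 17 regions, the hexamer (TCTCTG)n or (CAGAGA)n had 15, (TTCTC)n or (GAGAA)n and (TA)n had 14 each, and T-rich DNA had 11. The dinucleotide (CA)n or (TG)n had only 5 regions. No genome-wide count of these repeats was used, and the counts are therefore not enrichments.

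By name, 163 regions (60.8%, 54.9 to 66.5%) were at a repeat with purines alone on one strand. Low-complexity DNA was counted here by the bases in its name, which dominate it but need not be the only ones. Both purines were named in 135 regions (50.4%, 44.4 to 56.3%). Beyond the 163, a further 61 (22.8%) had a unit of 5 or 6 letters with 1 letter that broke the rule, as in (CAGAG)n. Among the simple repeats of these 2 kinds, 77 were spelled with the purine-rich strand and 92 with the pyrimidine-rich one; the list gives no strand for the repeat. At low-complexity DNA, 7 regions were called GA-rich or polypurine and 21 CT-rich or polypyrimidine, 5 were G-rich and 5 C-rich, and 6 were A-rich and 11 T-rich. Units containing CG were rare, at 3 regions.

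**Figure D1:**
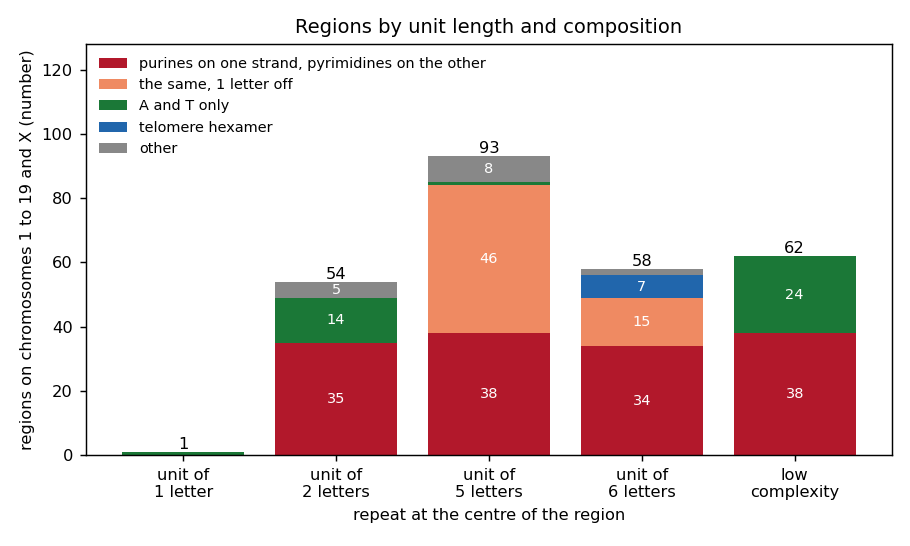
Number of regions on chromosomes 1 to 19 and X (vertical axis) by the repeat at their centre (horizontal axis), with colours for composition; repeats of A and T only are shown apart from the other purine-pyrimidine repeats. Units of 5 letters were the largest class with 93 regions, and purine-pyrimidine repeats held 34 to 38 regions in each class except units of 1 letter, while 24 of the 62 low-complexity regions were of A and T only.

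Nearly all of these regions were short and had low scores. The score is the authors' own value per region, in a unit that the list does not state. Its values over the 268 regions ran from 4.67 to 190.9, with a median of 7.01 and quartiles of 5.52 and 10.035. All of them were whole multiples of 0.21236, within rounding. This check is looser for the higher scores, which are printed to fewer decimals. Were 1 multiple 1 sequenced tag, the lowest score would stand for 22 tags and the median for 33, with 95% Poisson intervals of 13.8 to 33.3 and 22.7 to 46.3. Each interval is for a single region at that score. The intervals overlap, which is not a test of a difference.

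In length, 189 regions (70.5%, 64.8 to 75.7%) were exactly 500 bp, the shortest common length of the list, 74 were longer and 5 were shorter. The longest, 3015 bp, was CT-rich. To set regions of different length side by side, the score was also divided by length. This score per kb had a median of 12.4 (order-statistic 95% interval 11.9 to 13.1), with quartiles of 11.0 and 17.2 and a lowest value of 9.34.

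Between the frequent units the score per kb differed little. Its median was 12.7 at (GA)n (interval 11.2 to 15.3), 11.9 at (CAGAG)n (11.0 to 12.7), 11.9 at (GGAAA)n (10.6 to 14.9) and 11.0 at (TTCTCC)n (10.9 to 11.9). CT-rich DNA had 12.7 (10.6 to 17.0) and T-rich DNA 13.2 (10.6 to 19.5). These intervals overlap, with (TTCTCC)n at the low end. All these medians lie near the lower end of the list. On these chromosomes the lowest listed score was 4.25, and among regions of exactly 500 bp the lowest score per kb was 8.5. Regions with lower scores are not listed, so any difference between units below this cannot be seen. By unit length the medians were 12.2 for units of 2 letters, 12.3 for 5, 11.5 for 6 and 13.2 for low-complexity DNA.

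The 35 regions of (GA)n or (TC)n, 18 spelled GA and 17 TC, had scores of 4.88 to 27.2 with a median of 6.80, and at most 21.6 per kb. The hexamer (TTCTCC)n or (GGAGAA)n, spelled the first way in 19 and the second in 14, had 4.88 to 20.2 with a median of 5.73, at a median of 114 kb from a transcription start, against 59.4 kb in the whole set and 108 kb in the other regions of these chromosomes. The pentamer (CAGAG)n or (CTCTG)n, with 16 and 15 of each spelling, had 4.88 to 19.7 with a median of 7.43, at a median of 30.6 kb from a start, with 14 of 31 regions longer than 500 bp.

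Among the other frequent names, scores were 4.88 to 15.5 for (GGAAA)n or (TTTCC)n, 4.67 to 15.7 for (TTCTC)n or (GAGAA)n and 4.67 to 21.9 for (TCTCTG)n or (CAGAGA)n. They were 4.88 to 11.3 for (TA)n, the narrowest range among the 9 frequent names, and 5.31 to 17.4 for T-rich DNA. Among low-complexity names with fewer regions, the 5 G-rich ones reached 31.9 per kb and the 5 C-rich ones 26.8. The 27 names with under 10 regions held 79 regions in all, among them the telomere hexamer.

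**Figure D2:**
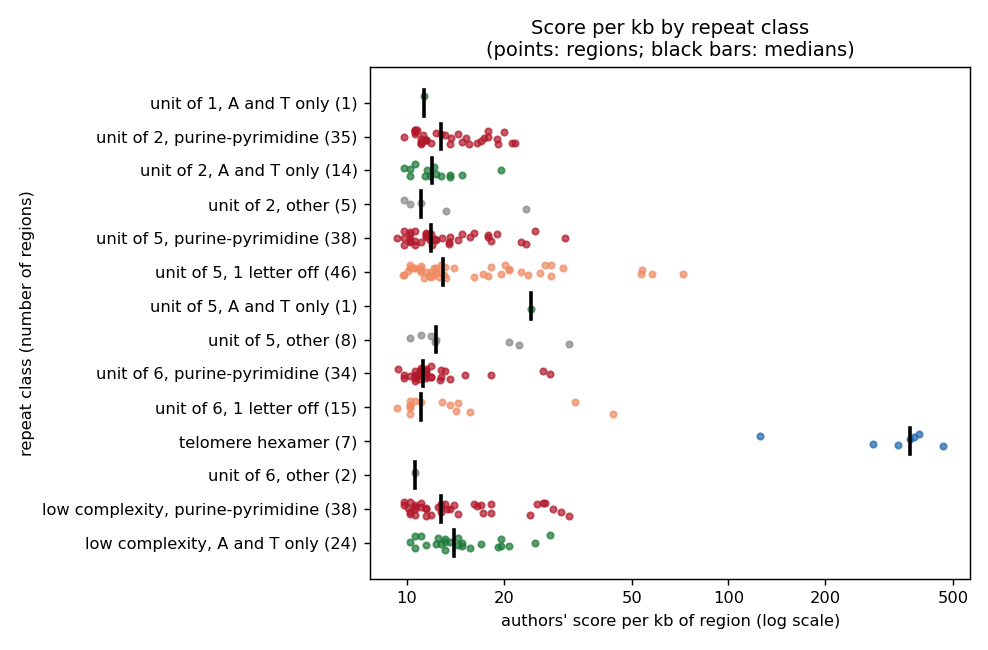
Score per kb (horizontal axis, log scale) of each region, one point per region, by repeat class (rows); black bars are medians. The 7 regions at the telomere hexamer lie between 125 and 466, apart from all other regions, which end at 72.2, while the medians of the other classes with 10 or more regions lie between 11.0 and 14.0.

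One unit stood apart from the rest: the telomere hexamer. It was at the centre of 7 regions on 7 chromosomes, which made up 2.61% of the set and carried 29.3% of its summed score. These 7 had the 7 highest scores of the set, from 62.6 to 190.9 with a median of 137, and the next highest score was 36.1. Their score per kb ran from 125.2 to 465.6 with a median of 368, against at most 72.2 in the other 261, so the ranges did not overlap. Counted in tags in the same way, the lowest of the 7 stands at 295 (262 to 331) and the next region of the set at 170 (145 to 198).

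The highest was on chromosome 12 (chr12:120028606-120029016, mm10), with a score of 190.9 and 465.6 per kb. It lay 7.36 kb past the end of Tmem196, a membrane protein gene and the last gene of that chromosome in the RefSeq table. On chromosome 19 (chr19:61331047-61331559) the score was 173.1, and the nearest transcription start was about 103 kb away, that of Csf2ra, a subunit of the receptor for a growth factor of granulocytes and macrophages. The region on chromosome 3 (chr3:159939304-159939673) scored 144.8 and began 0.638 kb past the end of Wls, which carries Wnt proteins to the cell surface. These 3 regions had no listed region and no annotated gene beyond them.

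The same held for the next 3. On chromosome 1 (chr1:195371600-195371963) the score was 137.0, with the last gene, the pseudogene Vmn2r-ps1, ending 80.2 kb before it. On chromosome 16 (chr16:98107394-98107761) it was 135.1, beyond the transcript A630089N07Rik. The region on chromosome 13 (chr13:120321292-120321631) scored 95.8 and lay 3.03 kb past Tcstv3, a gene known for its expression in the mouse embryo at the stage of 2 cells. All 6 were thus the last listed region of their chromosome, and 5 of the 6 were under 500 bp long, at 339 to 410 bp.

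Only 7 regions of the whole list of 39096 were shorter than 500 bp, and these 5 were among them. The seventh telomere repeat lay inside a chromosome (chr14:86198801-86199301), with 437 listed regions and 371 RefSeq genes beyond it. It had the lowest score of the 7, 62.6, and 125.2 per kb. In each of the 7 the list spells the unit TTAGGG and never CCCTAA, and none was in an intron.

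On the other 14 chromosomes the last listed region was centred on a LINE or LTR element, with scores of 7.22 to 182.6 (median 25.9). In 3 of these 14 it lay past the last gene. Among all 23030 regions on chromosomes 1 to 19 and X, the 7 telomere regions ranked 5 to 8, 11, 14 and 21 by score per kb. Of the first 20 by that measure, 6 were at the telomere hexamer and 10 at satellite DNA. By score without the division by length they ranked much lower, from 120 to 3221. The list has no input value and the number of hexamer copies per chromosome was not analysed here, so whether input was as high at these places was not tested.

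**Figure D3:**
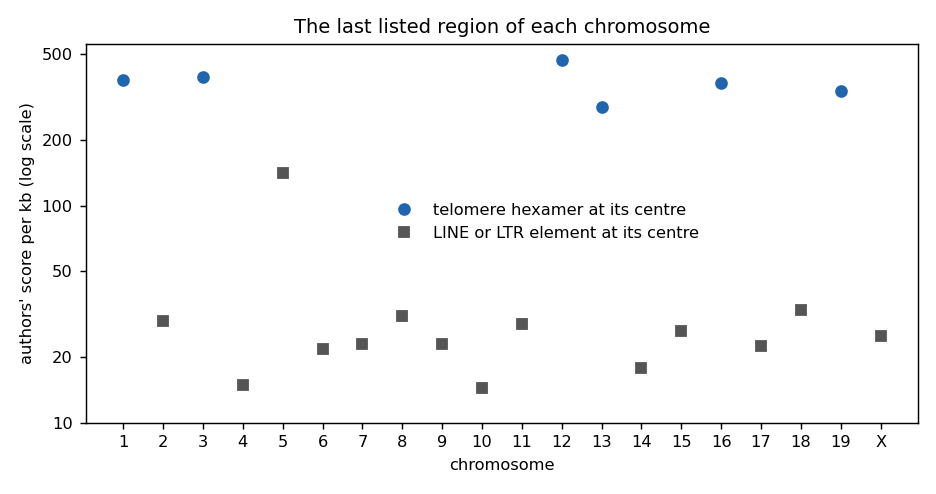
Score per kb (vertical axis, log scale) of the last region listed on each of 20 chromosomes (horizontal axis), with circles where the telomere hexamer was at its centre and squares where a LINE or LTR element was. The 6 circles lie between 283 and 466 and the 14 squares between 14.4 and 142, the highest square being on chromosome 5.

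After the telomere hexamer, the pentamer (CATTC)n or (GAATG)n had the highest median among units with 5 or more regions. This pentamer is known from human DNA as the building block of classical satellites. Its 6 regions had 17.2 to 72.2 per kb with a median of 21.1. The highest was in intron 10 of 20 of Dpp9, a gene for a dipeptidyl peptidase (chr17:56199777-56200277, score 36.1). The next, intergenic on chromosome 11 (chr11:25099866-25100366), had a score of 26.8, and the other 4 had 9.13 to 11.3. The same name also occurs once on these chromosomes in the satellite class, outside the set, with 366 per kb.

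By score per kb of single regions, the pentamers (CGGAA)n and (CACTC)n, with 1 region each, came after the (CATTC)n region in Dpp9. One was at (CACTC)n in intron 13 of 25 of Ano2, a chloride channel gene (chr6:125876789-125877414, score 33.6, 53.8 per kb). The other was at (CGGAA)n, 131 kb from Pou4f1, a transcription factor gene of sensory neurons (chr14:104336746-104337246, score 28.9, 57.8 per kb). Both scores lie above the third quartile of the set. The regions with the highest score at low-complexity DNA and at units of 1 and 2 letters were long, at 1740 to 3015 bp. At CT-rich DNA in intron 1 of 5 of the coiled-coil gene Ccdc122 (chr14:77048956-77051971) the score was 30.4 and 10.1 per kb. At (TC)n in the last intron of Qpct, a glutaminyl cyclase (chr17:79087088-79088828), it was 27.2 and 15.6 per kb, and at the only (T)n region (chr14:42385720-42387531) 20.4 and 11.3 per kb.

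Compared with the other regions on the same chromosomes, these repeats scored low. Their median score per kb was 12.4 (11.9 to 13.1), against 28.2 (28.0 to 28.3) in the other 22762 regions, which include the units of 3 or 4 letters. The difference was -1.18 on the log2 scale (-1.24 to -1.11, from the interval of the set's median), and the median of the set without the telomere hexamer was 12.3. LINE elements, which make up most of those, had 28.7 and LTR elements 30.2. Below 15 per kb lay 69.4% of the set and 10.9% of the other regions. Among regions of exactly 500 bp the medians were 11.9 in the set and 24.2 in the others, a difference of -1.02. In the 50% of regions with the higher score, 21 regions of the set were left, 7 of them telomeric, and the difference had the opposite sign, 0.76, with an interval that includes 0 (-0.25 to 3.16).

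The set was close to the simple repeats with units of 3 or 4 letters. Those had a median of 12.7 per kb (12.7 to 13.2), and the log2 difference, set minus those repeats, was -0.04 (-0.10 to 0.04, from the interval of the set's median). The share below 15 per kb was 69.4% in the set and 68.8% there, and the share of exactly 500 bp 70.5% in the set and 75.1% there. At the top they parted, since the highest value was 466 in the set, at the telomere hexamer, and 144 among units of 3 or 4 letters. Without that hexamer the order was reversed, with a highest value of 72.2 in the set. SINE elements (12.2) and regions without a named repeat (12.4) had medians of the same size. All of these medians lie near the lower end of the list.

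**Figure D4:**
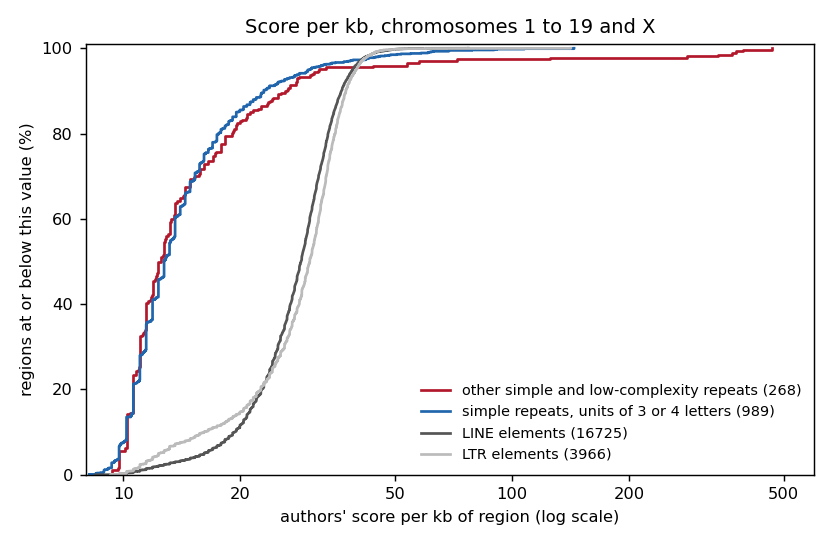
Percent of regions (vertical axis) at or below a given score per kb (horizontal axis, log scale) for the set, for simple repeats with units of 3 or 4 letters, and for LINE and LTR elements, on chromosomes 1 to 19 and X. The set and the other simple repeats rise together around 10 to 20 per kb, LINE and LTR elements around 20 to 40, and of the 4 curves the set's reaches farthest, to 466 at the telomere regions.

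Most of the set lay alone. Another listed region was within 10 kb of 49 of the 268 (18.3%, 14.1 to 23.3%), against 57.5% (56.9 to 58.2%) of the other regions and 12.8% (10.9 to 15.1%) of units of 3 or 4 letters. The median gap to the nearest region was 48.8 kb in the set and 3.98 kb in the others. The nearest region was at a LINE element for 162 of the set (60.4%) and at an LTR element for 54 (20.1%). Of all regions on these chromosomes, 72.6% are at LINE and 17.2% at LTR elements.

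The gap to the nearest region differed with the composition of the repeat. Repeats of A and T only, a group formed after the values were seen, had 40 regions, among them (TA)n, T-rich, A-rich and AT_rich DNA. Of these, 24 (60.0%, 44.6 to 73.7%) had another region within 10 kb, and their median gap was 7.33 kb. For (TA)n alone it was 10 of 14, and 5 of these 10 were on chromosome 14. The other purine-pyrimidine repeats together with those 1 letter off had 206 regions, of which 23 (11.2%, 7.56 to 16.2%) had one, with a median gap of 59.7 kb. Because the group was formed after the values were seen, the intervals of these 2 shares are not a test of a difference. On X, the 8 regions of A and T only had gaps of 0.984 to 2.53 kb, and the 10 of the 206 had 4.52 to 134 kb. Whether composition or location goes with the short gaps was not tested. The score per kb of the 2 groups was about the same, at medians of 13.2 (12.1 to 14.4) and 12.2 (11.5 to 12.7).

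The regions of A and T only were also more often next to predicted genes, those with symbols of Gm and a number. Such a gene was nearest to 16 of the 40 (40%, 26.3 to 55.4%) and to 14 of the 206 others (6.80%, 4.09 to 11.1%), against 11.6% of the whole set and 13.1% of the other regions of these chromosomes. On X lay 8 of the 40 (20%, 10.5 to 34.8%) and 10 of the 206 (4.85%, 2.66 to 8.70%), against 14.0% of the other regions of these chromosomes. The interval of the 40 includes that share. Several regions of A and T only lay at nearly the same distance from genes of one family. On chromosome 14, (TA)n regions with scores of 8.28, 8.92 and 8.49 were at -4.575, -4.588 and -4.598 kb from the start of Gm10377, Gm10377 and Gm10375, a negative distance being upstream. On chromosome 3, (TA)n regions with scores of 11.3 and 6.80 lay in the last introns of the pancreatic amylase genes Amy2a2 and Amy2a4, 9.17 and 9.13 kb from a start that the list names Amy2a5. The 4 T-rich regions on X were nearest to Gm10058 or Gm10096. Where the copies of such a family are near-identical, the copy from which a read came is uncertain. The sequences of these copies were not analysed here.

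**Figure D5:**
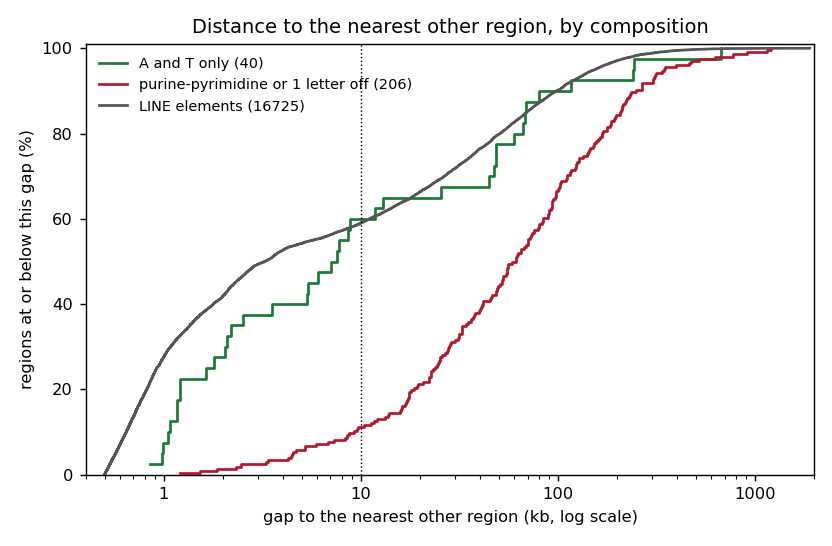
Percent of regions (vertical axis) with another listed region at or within a given gap (horizontal axis, kb, log scale), for repeats of A and T only, for purine-pyrimidine repeats including those 1 letter off, and for LINE elements. At the dotted line, 10 kb, the curves stand at 60.0%, 11.2% and 59.0%.

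By the authors' annotation the set was split between intergenic DNA, 184 regions (68.7%, 62.9 to 73.9%), and introns, 84 (31.3%, 26.1 to 37.1%). No region was at a promoter, an exon or a transcription end. The intronic share was 20.9% (20.4 to 21.4%) in the other regions, 27.0% (24.3 to 29.9%) at units of 3 or 4 letters and 20.3% at LINE elements. Within the set it was 39.8% (30.4 to 49.9%) for units of 5 letters and 24.1% (14.96 to 36.5%) for units of 6. Pentamers of GAGAA type had 8 of 14 in introns, and (TA)n 2 of 14.

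The 84 intronic regions lay in 84 different transcripts, 28 of them in intron 1, and none of the 84 host genes held more than 1. Among the 10 with the highest score, after Dpp9, Ano2, Ccdc122 and Qpct, was Mcc, named for mutations in colorectal cancer, with (GGAGAA)n in intron 1 of 18 (score 20.2). The predicted gene Gm5591 had (CCTAA)n in intron 1 of 2 (20), and Mup15, of the major urinary protein family, had (GGGAGA)n in intron 3 of 6 (17.4). Cecr2, a chromatin remodelling factor, had (TTCTC)n in intron 1 of 18 (15.7). Myo7a, a myosin of hair cells, had (AATAG)n in intron 39 of 48 (14.9). Shisa6, which modulates glutamate receptors, had (CAGAG)n in intron 2 of 4 (14.0).

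Few regions were near a gene's start. The nearest TSS (transcription start site) was at a median of 59.4 kb (42.9 to 78.2 kb), against 108 kb in the other regions and 90.3 kb at units of 3 or 4 letters. Among the other regions it was 127.5 kb at LINE, 67.8 kb at LTR and 39.9 kb at SINE elements, and 37.5 kb without a named repeat. Within 5 kb of a TSS lay 14 of the set (5.22%), 2.17% of the other regions and 5.06% of units of 3 or 4 letters. Only 1 was within 1 kb, at (GAAAA)n in intron 1 of the transcript E330021D16Rik, 484 bp from its TSS (score 5.73). None of the 268 overlapped a promoter window from 250 bases before to 50 after a gene's start in RefSeq (GRCm38.p6). A limit of 3 counts in 268 allows a share of up to 1.12%, and 34 of the other 22762 regions (0.149%) overlapped one, so no difference was detectable with 268 regions.

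Besides the telomere region near Tcstv3, the highest score within 5 kb was 21.9, for a (TCTCTG)n region lying -3.015 kb from Taar6, a receptor for trace amines (chr10:23988411-23988911). Gm5591 followed at 2.60 kb. Regions with scores of 13.4 lay 3.06 kb from the TSS of the scavenger receptor gene Cd163l1, at (CGAGG)n, and 4.23 kb from that of the tight junction gene Cldn18, at C-rich DNA. On X, a (TC)n region at -4.126 kb from Tro, the gene of the adhesion protein trophinin, scored 10.8, and a (CAGAG)n region at -2.57 kb from Gm6927 scored 7.65. Clec2e, of the C-type lectin family, had (CAGAGA)n in intron 2 of 4 (9.13), and Denr, which acts in translation, had CT-rich DNA at -3.70 kb (6.80).

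The 268 regions had 257 different nearest genes. Olfactory receptors (Olfr) were nearest to 1 region of the set (0.373%, 0.066 to 2.08%) and to 1.92% of the other regions. Vomeronasal receptors (Vmn) were nearest to 0 of the set, where the limit of 3 counts is 1.12%, and to 2.03% of the others. Zinc finger genes (Zfp) were nearest to 4 of the set (1.49%, 0.582 to 3.77%), Zfp369 and Zfp386 among them, and to 0.967% of the others. The Olfr and Zfp intervals include the shares of the others. Of 30 genes of spermatogonia, meiosis, the piRNA pathway and spermatids, 0 were nearest to a region of the set, and 2 of the other 22762 regions had one as nearest gene.

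Every chromosome held some of these repeats. They made up 249 of the 19819 autosomal regions (1.26%, 1.11 to 1.42%) and 19 of the 3211 on X (0.592%, 0.379 to 0.922%). Of the set 7.09% lay on X, against 2.93% of units of 3 or 4 letters and 14.0% of the other regions. Among the autosomes the share ran from 0.723% on chromosome 18 (5 regions) to 2.72% on chromosome 11 (17 regions, 1.70 to 4.31%), and chromosome 14 held the most, 23. The denominators of these shares are mostly LINE and LTR regions. Of the 19 regions on X, 8 were at low-complexity DNA and 4 of these were T-rich.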

How the data were processed

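The data were 1 list of regions for a series of 6 ChIP-seq and input libraries. Bowtie2 2.2.2, SAMtools, HOMER 4.6 and mouse build mm10 are named, per the submitters' processing notes; their roles, the peak settings, the libraries used and the control are not given in the sources used here. Per the file headers the list was annotated with HOMER against mm10, and its score is a value the authors deposited per region; the list has 0 columns per library, so depth per library is unknown. Positions are printed as deposited. Repeat names, lengths, scores and distances were read from the list. Units were grouped over rotations and both strands. Shares have Wilson 95% intervals and medians order-statistic 95% intervals, both for counting error only, and a count of 0 is given with a limit of 3 counts; the member rule and intervals were tested on simulated data. Gene ends and intron hosts were looked up in RefSeq (GRCm38.p6), where all 84 host accessions matched. The set, the gene list and the rules were chosen with earlier results of these data known. Regions were named by score (10), score per kb (5), the highest of each class, those within 5 kb of a TSS (12) and intronic ones (10), and units by at least 10 members; other units were named after their values were seen, as were the A and T group, the chromosome ends and the value of 15 per kb. Alternatives were a score filter, other chromosome sets, region lengths, clustering, windows, and leaving out low complexity or TTAGGG. Computation used SciPy 1.17.1, NumPy 2.4.6 and pandas 2.3.3 under Python 3.11.15, and figures matplotlib 3.10.9.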

Additional observations from a re-analysis of the deposited data

How the results depend on the processing

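In the 50% of regions with the higher score, 21 of the set remained. Their share was 0.181%, low complexity 9.52%, dinucleotides 4.76%, purine repeats 23.8%, exactly 500 bp 23.8%, X 0% (0 of 21; a limit of 3 counts allows up to 14.3%), the median score per kb 53.6, the distance to a TSS 36.1 kb, and the log2 differences 0.76 (-0.25 to 3.16) from the other regions and 0.41 (-0.61 to 2.80) from units of 3 or 4 letters; this filter selects on the score itself. With Y and the contigs (587 regions) the share was 1.50%, low complexity 32.2%, dinucleotides 29.1%, purine repeats 48.9%, exactly 500 bp 38.3%, X 3.24%, intergenic 83.5%, TSS distance 165 kb, a region within 10 kb 62.0%, and the log2 difference from the other regions -0.64. Without regions of 500 bp the share was 0.544%, low complexity 16.5%, purine repeats 48.1% and the score per kb 13.5. Without low complexity the share was 0.894%, dinucleotides 26.2% and purine repeats 52.4%. With clustered regions counted once the share was 1.74%. With regions of 500 bp only, an alternative chosen after seeing the data, it was 2.22% and the log2 difference -1.02. A neighbour was within 2 kb of 5.22% and within 50 kb of 50.7%. The cause was not tested beyond what each filter removes. The other 61 of 93 values stayed inside their intervals, including all with autosomes only and all without the TTAGGG regions (chosen after seeing the data). No paired analysis was possible because no value of the list belongs to a single library.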

Other observations

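Chromosome Y, outside the set, held 314 regions at the same kinds of repeat, 1.99% of its 15782. The median score per kb was 12.4 in the 268 on the autosomes and X and 12.5 on Y, while the median length was 500 bp in the set and 1679 bp on Y. The units differed. On the autosomes and X (CA)n or (TG)n held 5 regions (1.87%) and (GA)n or (TC)n 35 (13.1%), against 65 (20.7%) and 42 (13.4%) on Y. AT_rich DNA held 2.61% on the autosomes and X and 16.2% on Y. The hexamer (TTCTCC)n with its other strand, second in the set with 33 regions, had 2 on Y (0.637%).

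The telomere hexamer also occurred at 5 Y regions, spelled TTAGGG in 2 and CCCTAA in 3. Score per kb was 125 to 466 in the 7 regions on the autosomes and 10.6 to 16.9 in those on Y. The Y regions were longer, at 927 to 4740 bp against 339 to 512 bp on the autosomes. Without the division by length the ranges overlapped, with scores of 11.0 to 80.1 on Y and 62.6 to 190.9 on the autosomes.

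The last region of chromosome 5, outside the set, was centred on an MLT1A1 LTR element (chr5:151734354-151734678), was 324 bp long, the shortest of the list, lay 34.0 kb past the last gene and had 142 per kb, above the other 13 last regions that are not telomeric (14.4 to 33.1).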
